A study of Populus tremula x Populus alba with 20 samples.

Results

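Overexpressors of a pair of TEMPRANILLO-like genes were compared with each other in dormant poplar buds, before and after chilling. All 8 TEML1ox libraries were set against all 8 TEML2ox libraries, which are 16 of the 20 libraries of the series. The other 4 libraries, from wild type (WT), stayed out of the main tests and serve as reference levels. They also entered the scaling of CPM and an alternative fit of all 20 libraries. TEML1ox comprised the lines TEML1_1ox and TEML1_2ox, and TEML2ox the lines TEML2_1ox and TEML2_2ox. All plants were hybrid poplar (Populus tremula x Populus alba) of an INRA clone, raised in vitro and potted under long days at 22 °C, for 6 weeks by one description and 4 by another. Growth then stopped and buds set during 8 weeks of short days, and apical buds were taken at that point (SD8) or after 2 more weeks of short days at 4 °C (CH2). Each line had 2 replicates per harvest, made of pooled buds. The pool is described once as 3 buds and once as 2 plants. The sources used here do not give the promoter that drives the transgenes, or whether each line is a separate insertion event.

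TEMPRANILLO proteins are transcription factors of the RAV family. In Arabidopsis they repress the florigen gene FLOWERING LOCUS T and genes of gibberellin synthesis, and so delay flowering. In poplar, short days stop apical growth and bring about bud dormancy, and a long cold period then releases it. The comparison asks where overexpression of one TEMPRANILLO-like gene left a different bud transcriptome from overexpression of the other. No name goes with an identifier in the files, so each gene appears under its identifier alone, with no function. The overexpressed genes and the bud label were therefore not checked through known genes.

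The libraries held 35779227 to 39352645 counts over 31823 genes. Harvest dominated them: the first principal component of log2 CPM held 79.1% of the variance and set all SD8 libraries apart from all CH2 libraries. CPM are counts scaled to a common library total after TMM normalization. On that component the constructs overlapped at each harvest. The third component, with 2.04% of the variance, was the one of the first 6 on which the constructs did not overlap. There the lowest TEML1ox library stood at -2.14 and the highest TEML2ox library at -3.17, a narrow gap between CH2 libraries of TEML1_2ox and TEML2_1ox. Both TEML2_2ox libraries of SD8 stood apart, at -120.6 and -123 on the first component against -108 to -83.0 in the other 6 SD8 libraries. On the second component, with 5.61% of the variance, they stood at -50.7 and -48.5 against -16.8 to 40.4 in those 6.

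**Figure D1:**
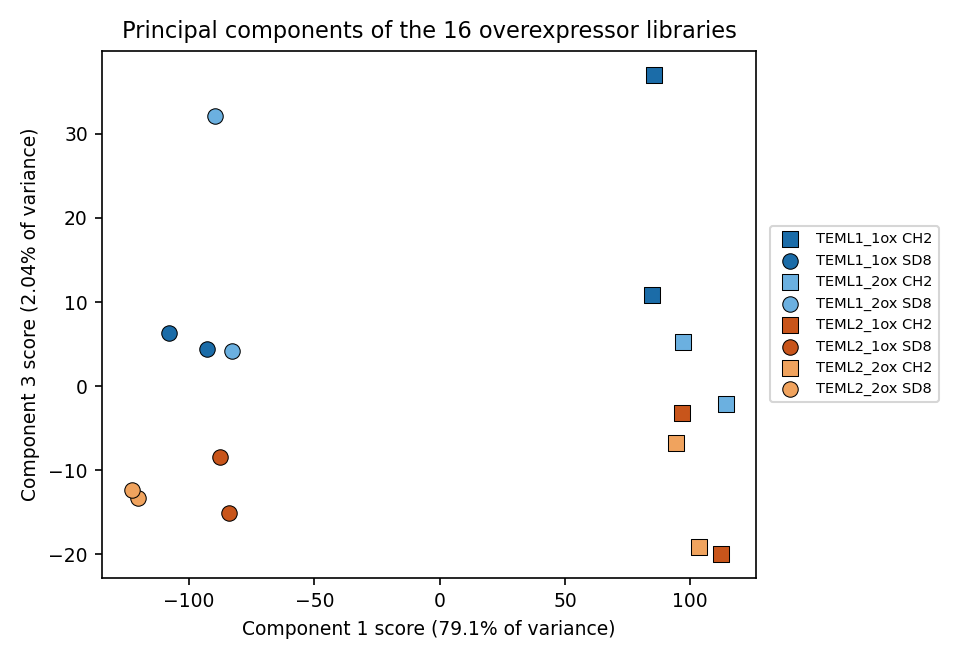
Scores of the 16 overexpressor libraries on components 1 and 3 of log2 CPM, with colour for the line and circles for SD8 and squares for CH2. Component 1 parts the harvests and component 3 holds every TEML1ox library above every TEML2ox library, by a narrow margin at CH2.

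Across both harvests the constructs differed at few genes. With harvest as a covariate, edgeR's quasi-likelihood F test called 15 of 26136 genes at an adjusted p under 0.05, which is 0.0574% of them. In TEML1ox 10 were higher (0.0383%) and 5 lower (0.0191%) than in TEML2ox. In 11 of the 15, or 0.0421% of the genes tested, every TEML1ox library lay on one side of every TEML2ox library at SD8 and again at CH2, so that both lines of each construct took part. Of these 11 genes, 7 were higher and 4 lower in TEML1ox. Non-overlap was read from the libraries that made the calls and is a description of them. Only 3 of the 11 differed by 2-fold or more in the fit. The median size of their log2 fold changes was 0.46, against 0.07 over all genes tested. Selection by a call and by non-overlap favours larger differences, so this gap is no separate result.

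The count depended on single libraries, and the p-values take libraries of a line as independent. The 15 became 27 without TEML1_1ox CH2 replicate 1. They became 2 without TEML1_1ox CH2 replicate 2 or TEML2_1ox SD8 replicate 1, 3 without TEML2_1ox CH2 replicate 2, 4 without TEML1_2ox SD8 replicate 2 and 5 without TEML2_1ox CH2 replicate 1. The count was 7 without TEML1_1ox SD8 replicate 2, TEML1_2ox CH2 replicate 2 or TEML2_2ox CH2 replicate 1, and 9 without TEML1_1ox SD8 replicate 1, TEML1_2ox SD8 replicate 1 or TEML2_2ox SD8 replicate 2. The 11 genes became 2 to 21 under the same omissions, and 2 to 11 of the original 11 were among them. With a whole line left out, the list changed its members. Without TEML1_1ox it held 8 genes, of which 1 was among the 11, and without TEML1_2ox it held 10, of which 4 were. Without TEML2_1ox it held 12 genes, of which 3 were among the 11, and without TEML2_2ox it held 34, of which 6 were. In the other direction, leaving out both TEML2_2ox libraries of SD8, chosen after seeing the data, gave 97 genes, 72 of them without overlap at either harvest and all 11 among these. In every omission non-overlap was asked only of the libraries kept, a looser rule than the one behind the 11. The 11 meet that part of it by construction. With the counts of each line summed, so that 2 lines faced 2 lines, 0 of 27882 genes passed in edgeR. An unadjusted p under 0.05 was seen at 502 of them, a smaller share than the 0.05 that chance alone would give. Limma-voom that took the line as a random effect, with a single correlation shared by all genes, called 2 genes, 1 of them among the 11. DESeq2 called 126 genes and limma-voom with no line effect 31, of which 40 and 19 did not overlap at either harvest, and all 11 were among these in each tool.

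**Figure D2:**
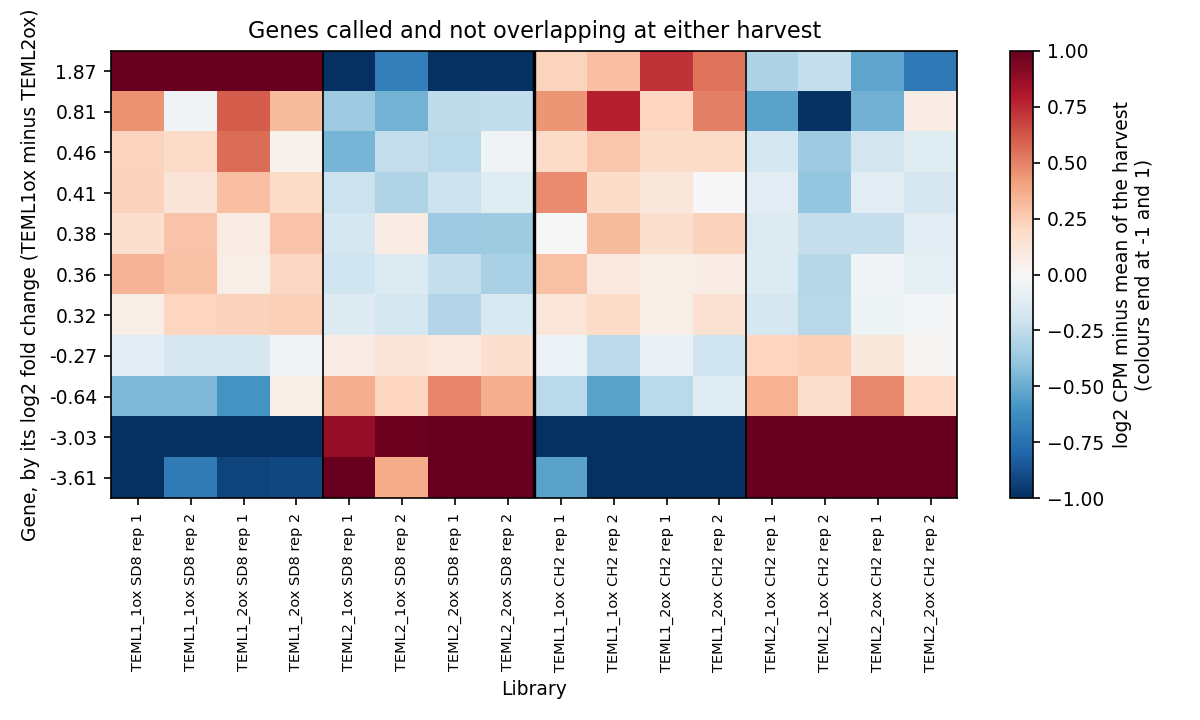
The 11 genes called across harvests with no overlap at either harvest, 1 row each, labelled by log2 fold change; each cell is a library's log2 CPM minus the mean of the 8 libraries of its harvest. Within each harvest the 4 TEML1ox and 4 TEML2ox libraries, divided by a line, lie on opposite sides, although single libraries of the smaller differences come close to the mean or just past it. Colours end at -1 and 1, and the genes at 1.87, -3.03 and -3.61 are the 3 of 2-fold or more.

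PtXaAlbH.08G098800.v5.1 had the smallest adjusted p of the 11, and it was higher in TEML2ox. Whether it or PtXaAlbH.10G102000.v5.1, described next, is itself one of the overexpressed genes was not tested, and a transgene's own transcript cannot be told apart here from a response to it. At SD8 it stood at 19.9 and 21.3 CPM in the TEML1_1ox replicates and 17.3 and 18.5 in TEML1_2ox. In TEML2_1ox it stood at 100.04 and 107 CPM, and in TEML2_2ox at 227 and 227. The constructs were far from overlapping, and the lowest TEML2ox library was 4.69 times the highest TEML1ox library. At CH2 the TEML1_1ox replicates held 32.1 and 33.1 CPM and those of TEML1_2ox 41.2 and 37.5. The TEML2_1ox replicates held 195 and 201 CPM and those of TEML2_2ox 363 and 363. TEML1ox averaged 19.2 ± 1.75 CPM at SD8 and 36.0 ± 4.19 at CH2, and TEML2ox 165 ± 71.3 and 281 ± 95.3 (SD, n = 4 each). The log2 fold change across harvests was -3.03 ± 0.20 (SE, edgeR adjusted p = 4.75e-07), and the TEML2ox mean was 8.60 times the TEML1ox mean at SD8 and 7.80 times at CH2.

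The level of this gene also differed between the TEML2ox lines. TEML2_2ox was above TEML2_1ox by 2.19 times at SD8 and 1.83 times at CH2, a log2 difference of -1.14 ± 0.07 and -0.87 ± 0.07 for TEML2_1ox minus TEML2_2ox (edgeR adjusted p = 3.37e-06 and 6.47e-05). Between the TEML1ox lines the difference was 0.21 ± 0.07 at SD8 and -0.27 ± 0.07 at CH2 (edgeR adjusted p = 0.286 and 0.177). The call across harvests held with each of the 16 libraries left out (edgeR adjusted p up to 4.61e-06) and with a random line effect (limma-voom adjusted p = 9.87e-07). That line effect takes a single correlation shared by all genes, so it does not follow this gene's own spread between lines. Without the line effect the limma-voom adjusted p was 7.39e-07. It was lost with the counts of a line summed (edgeR adjusted p = 0.9998, log2 fold change -3.01). WT stood at 35.1 and 23.9 CPM at SD8 and at 52.4 and 52.0 at CH2, above every TEML1ox and below every TEML2ox library of the same harvest.

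PtXaAlbH.10G102000.v5.1 was the gene with the largest rise in TEML1ox over TEML2ox among those the naming rule allowed. At SD8 it stood at 117 and 114 CPM in TEML1_1ox, 130.4 and 123 in TEML1_2ox, 20.5 and 26.3 in TEML2_1ox and 9.32 and 9.16 in TEML2_2ox. The groups lay far apart, with TEML1ox at 121 ± 7.11 CPM and TEML2ox at 16.3 ± 8.50 (SD, n = 4 each), 7.43 times apart. At CH2 it stood at 264 and 277 CPM in TEML1_1ox, 372 and 329 in TEML1_2ox, 182 and 191 in TEML2_1ox and 157 and 138 in TEML2_2ox. The groups still did not overlap, but the means of 310.5 ± 49.5 and 167 ± 24.1 CPM (SD, n = 4 each) were only 1.86 times apart.

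The log2 fold change of PtXaAlbH.10G102000.v5.1 was 1.87 ± 0.32 (SE) across harvests (edgeR adjusted p = 0.0421), 2.90 at SD8 (edgeR adjusted p = 0.000111) and 0.90 at CH2 (edgeR adjusted p = 0.476). From SD8 to CH2 its level rose in both constructs, by 1.37 ± 0.25 on the log2 scale in TEML1ox (edgeR adjusted p = 0.000116) and by 3.37 ± 0.27 in TEML2ox (edgeR adjusted p = 1.19e-08). The difference between those rises had an unadjusted p of 3.54e-05 and an edgeR adjusted p of 0.314, so it is not called. The call across harvests passed in 1 of the 16 omissions, that of TEML1_1ox CH2 replicate 1 (edgeR adjusted p of 0.0512 to 0.0948 in the others). It was also lost with a random line effect (limma-voom adjusted p = 0.297) and without line TEML1_1ox, TEML1_2ox or TEML2_1ox (edgeR adjusted p = 0.0829, 0.170 and 0.0878). The SD8 call held in all 16 (edgeR adjusted p up to 0.00124) but not in a fit of the SD8 table alone (edgeR adjusted p = 0.0947). WT, at 36.6 and 14.8 CPM at SD8 and 148 and 171 at CH2, lay below every TEML1ox library and overlapped TEML2ox at both harvests.

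**Figure D3:**
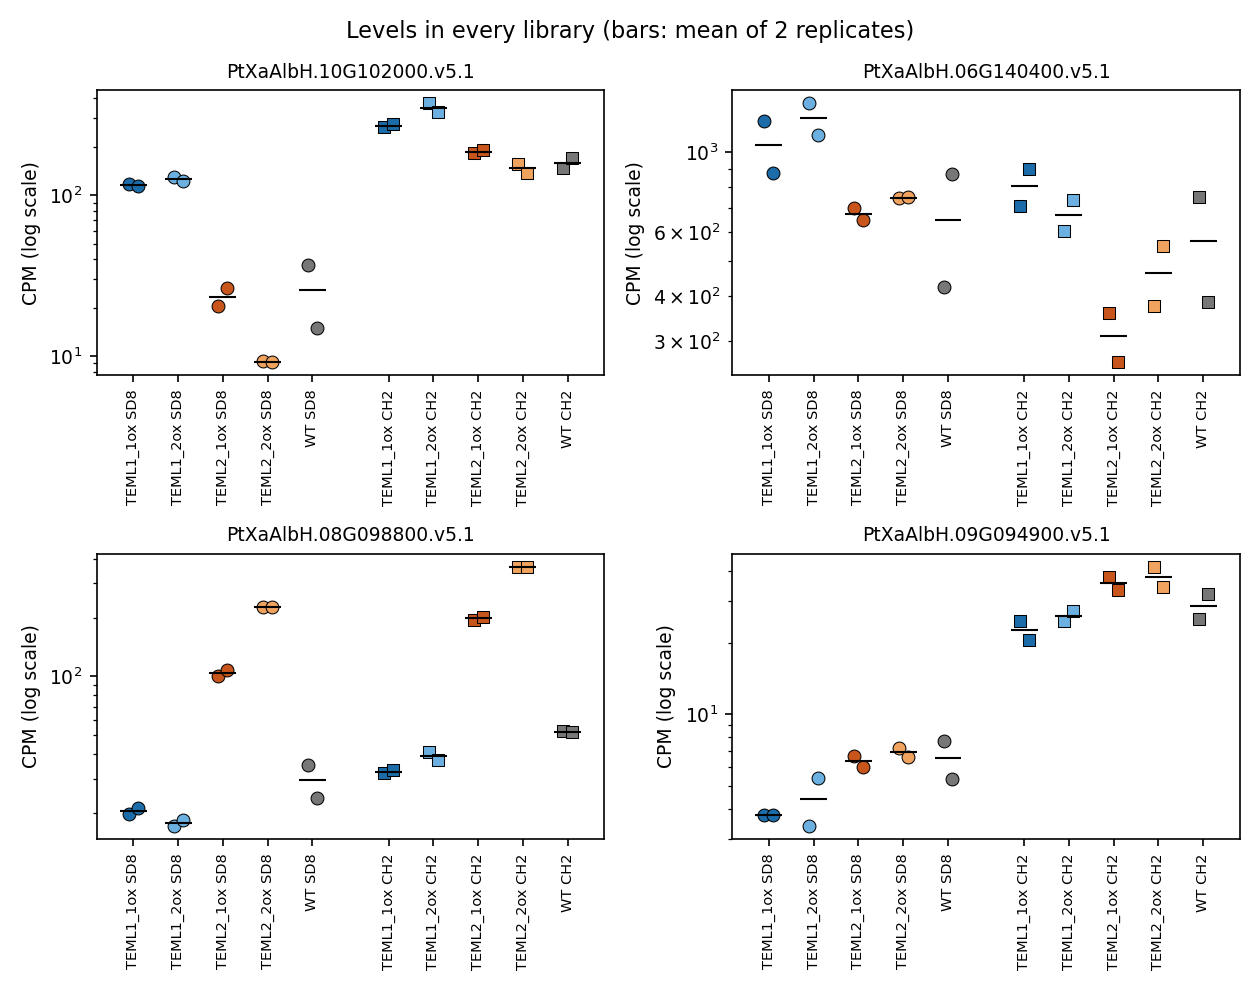
CPM of the 4 genes named by rule in each library, on log axes, with SD8 libraries as circles on the left and CH2 libraries as squares on the right; bars are means of 2 replicates and grey points are WT. PtXaAlbH.08G098800.v5.1 and PtXaAlbH.10G102000.v5.1 part the constructs by wide gaps at SD8, while PtXaAlbH.06G140400.v5.1 and PtXaAlbH.09G094900.v5.1 part them by gaps of 1.10 to 1.22 times.

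PtXaAlbH.06G140400.v5.1 was an abundant transcript with higher levels in TEML1ox. At SD8 it stood at 1219 and 873 CPM in TEML1_1ox, 1362.5 and 1114 in TEML1_2ox, 699 and 648 in TEML2_1ox and 746 and 752 in TEML2_2ox. At CH2 the values were 709 and 898 CPM in TEML1_1ox, 606 and 738 in TEML1_2ox, 360 and 263 in TEML2_1ox and 375 and 551 in TEML2_2ox. The lowest TEML1ox library exceeded the highest TEML2ox library by 1.16 times at SD8 and 1.10 times at CH2. The log2 fold change was 0.81 ± 0.13 (SE, edgeR adjusted p = 0.0292). It passed in 6 of the 16 omissions of a library. It was lost without TEML1_1ox SD8 replicate 1, TEML1_1ox CH2 replicate 2, TEML1_2ox SD8 replicate 1 or 2, TEML1_2ox CH2 replicate 2, TEML2_1ox SD8 replicate 1 or 2, TEML2_1ox CH2 replicate 1 or 2, or TEML2_2ox CH2 replicate 1 (edgeR adjusted p up to 0.0866), with a random line effect (limma-voom adjusted p = 0.280) and in the fit of all 20 libraries (edgeR adjusted p = 0.107). It was lost as well without line TEML1_1ox, TEML1_2ox or TEML2_1ox (edgeR adjusted p = 0.124, 0.171 and 0.115). WT varied widely between its replicates, at 425 and 871 CPM at SD8 and 753 and 384 at CH2.

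PtXaAlbH.09G094900.v5.1 was lower in TEML1ox. At SD8 it stood at 3.78 CPM in both TEML1_1ox replicates, 3.40 and 5.39 in TEML1_2ox, 6.66 and 6.01 in TEML2_1ox and 7.23 and 6.61 in TEML2_2ox. At CH2 it was higher in all lines, at 24.7 and 20.5 CPM in TEML1_1ox, 24.6 and 27.2 in TEML1_2ox, 37.7 and 33.2 in TEML2_1ox and 41.6 and 34.2 in TEML2_2ox. The log2 fold change between constructs was -0.70 at SD8 and -0.60 at CH2. Across harvests it was -0.64 ± 0.09 (SE, edgeR adjusted p = 0.0134), and the call held with each library left out (edgeR adjusted p up to 0.0483). It was lost with a random line effect (limma-voom adjusted p = 0.315), and without line TEML1_1ox or line TEML2_2ox (edgeR adjusted p = 0.174 and 0.0552). WT stood at 7.75 and 5.36 CPM at SD8 and 25.1 and 32.0 at CH2.

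The other 7 of the 11 genes differed by less, apart from 1 with few reads. Of these 7, 5 were higher in TEML1ox, with log2 fold changes of 0.32 to 0.46 across harvests, 0.37 to 0.51 at SD8 and 0.26 to 0.42 at CH2. One more gene was lower by a log2 fold change of -0.27. The last, PtXaAlbH.18G105900.v5.1, fell below the level the naming rule asks for and was singled out after its values were seen. TEML1ox libraries held 0 to 4 counts of it at SD8 and 0 to 3 at CH2, and TEML2ox libraries 10 to 31 and 13 to 37. Its level in TEML2ox was 8.68 times that in TEML1ox at SD8 (95% exact binomial interval 4.51 to 18.7) and 26.9 times at CH2 (8.89 to 133), which covers counting error only. WT libraries held 23 and 41 counts at SD8 and 17 and 38 at CH2, all above every TEML1ox library. The edgeR log2 fold change across harvests was -3.61 ± 0.52 (SE, adjusted p = 0.0199). The gene was not called at SD8 or at CH2 alone (edgeR adjusted p = 0.249 and 0.203). It passed in 0 of the 8 contrasts of single lines between constructs, described below.

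The 4 called genes outside the 11 had log2 fold changes of 0.34 to 0.82 in size, 3 of them higher in TEML1ox. In 2 of them the constructs overlapped at SD8, and in the other 2 at CH2. Without regard to calls, the constructs lay apart on the same side at both harvests at 53 of the 26136 genes (0.203%), 25 with TEML1ox higher and 28 with TEML1ox lower. Of these, 42 were not called, with edgeR adjusted p of 0.0557 to 0.580, and the median size of their log2 fold changes was 0.31. At 16 genes (0.0612%) the constructs lay apart on opposite sides at the harvests. At single harvests the constructs did not overlap at 740 genes at SD8 (2.83%) and 1411 at CH2 (5.4%).

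Within each harvest few genes passed in the fit of 4 groups, and the counts depended on the tool and the lines. At SD8 edgeR called PtXaAlbH.08G098800.v5.1 and PtXaAlbH.10G102000.v5.1, 2 of 26556 genes (0.00753%), and at CH2 only the former (0.00377%). For PtXaAlbH.08G098800.v5.1 the log2 fold change was -3.11 at SD8 (edgeR adjusted p = 0.000111) and -2.96 at CH2 (edgeR adjusted p = 0.000339). The difference between its harvest values was 0.15 ± 0.38 (edgeR adjusted p = 0.968). Its call was lost without line TEML1_2ox at SD8 (edgeR adjusted p = 0.0703) and without line TEML1_1ox at CH2 (edgeR adjusted p = 0.115). At an unadjusted p under 0.05 there were 2018 of the 26556 genes at SD8 and 1705 at CH2. Chance alone would give a share of 0.05, which makes up most of each count. DESeq2 called 76 genes at SD8 and 60 at CH2, and edgeR with each line as its own group 186 and 39. Without line TEML2_1ox, 2720 genes passed at SD8 and 8 at CH2, and without TEML2_2ox 8 and 5. Whether the construct difference itself differed between harvests was tested in the same fit. There edgeR called 0 genes (0%), and 1542 of the 26556 had an unadjusted p under 0.05, most of which chance alone would also give. In that test 20 genes passed in DESeq2 and 0 in limma-voom.

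All 11 genes kept their direction from harvest to harvest, which their selection fixes, and in 8 of them the log2 difference was larger at SD8. The share of all genes with a larger difference at SD8 was not taken, so the 8 cannot be read as a trait of the 11. Over all 26556 genes the construct differences at SD8 and CH2 had a Pearson r of 0.03 and a Spearman rho of -0.00124 across genes. For the 21255 genes whose mean log2 CPM reached 1, r was -0.00608. The harvests share lines but no library, and genes are not independent replicates. Of the 11 genes, 10 changed from SD8 to CH2 in the same fit, 9 higher at CH2 and 1 lower. Over all 26136 genes 82.1% changed, 39.7% higher and 42.3% lower at CH2. In bulk buds, fewer cells of a type and less RNA per cell cannot be told apart, and harvest cannot be told apart from its separate count table.

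**Figure D4:**
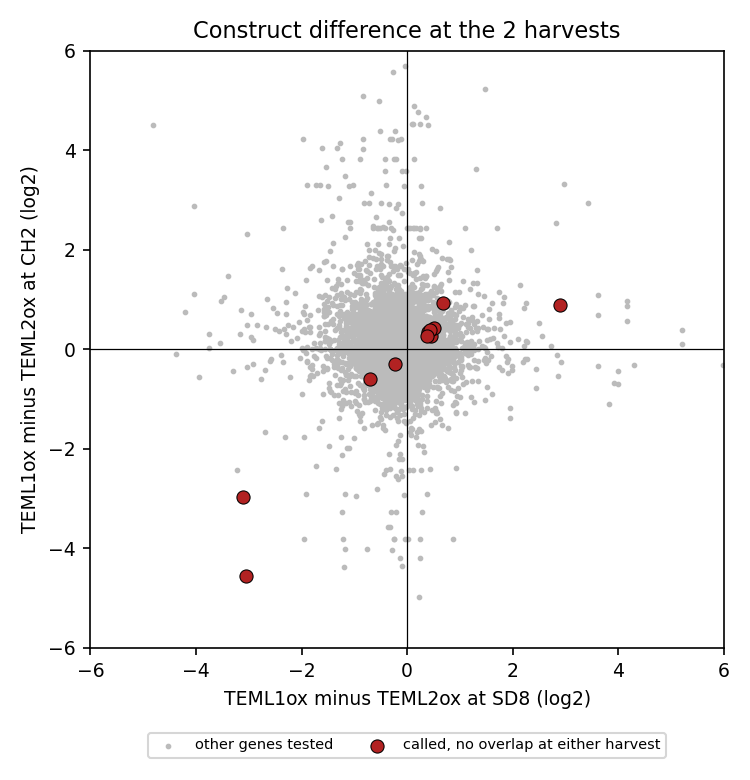
Log2 difference TEML1ox minus TEML2ox of each gene tested, SD8 on the horizontal and CH2 on the vertical axis, with the 11 genes called and not overlapping at either harvest in red. The grey cloud shows no slope (r = 0.03) and the red points lie in the quadrants of equal sign, as their selection requires; 11 grey genes lie beyond the axis limits of 6.

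Set line against line, the counts between constructs ran from 11 to 4775 genes, and those between lines of 1 construct from 11 to 6557. In a fit of 8 groups of 2, each TEML1ox line was tested against each TEML2ox line within each harvest, over 27216 genes. At SD8 the contrasts with TEML2_1ox called 86 genes (0.316%) for TEML1_1ox and 37 (0.136%) for TEML1_2ox. Those with TEML2_2ox called 1148 (4.22%) and 4775 (17.5%). Between lines of 1 construct at SD8, TEML1_1ox and TEML1_2ox differed at 98 genes (0.36%) and TEML2_1ox and TEML2_2ox at 6557 (24.1%). At CH2 the between-construct contrasts called 303 genes (1.11%) for TEML1_1ox against TEML2_1ox and 33 (0.121%) for TEML1_1ox against TEML2_2ox. They called 14 (0.0514%) for TEML1_2ox against TEML2_1ox and 11 (0.0404%) for TEML1_2ox against TEML2_2ox. The TEML1ox lines differed at 15 genes there (0.0551%) and the TEML2ox lines at 11 (0.0404%). No test compared these counts with each other.

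**Figure D5:**
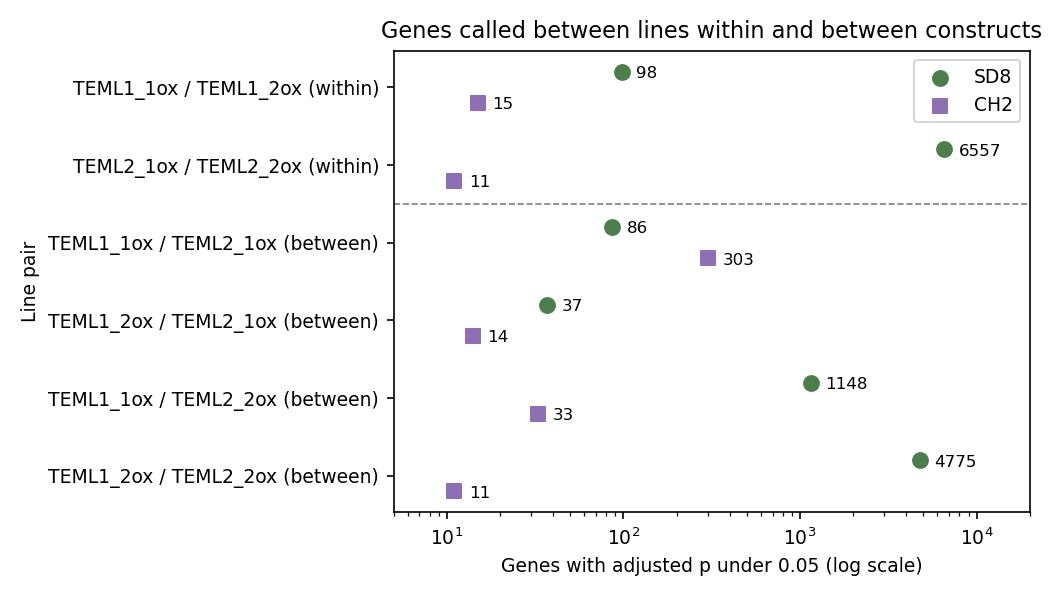
Genes called between each of the 6 pairs of lines, on a log axis, for SD8 (circles) and CH2 (squares), with pairs of 1 construct above the dashed line and pairs across constructs below it. The 3 highest SD8 counts, 1148, 4775 and 6557, are the pairs with TEML2_2ox.

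Of the 8 line-pair contrasts between constructs, 2 genes passed in all 8 in one direction, 0.00735% of those tested. They were PtXaAlbH.08G098800.v5.1, with log2 fold changes of -3.68 to -2.33, and PtXaAlbH.10G102000.v5.1, with 0.54 to 3.77. No gene passed in 5, 6 or 7 of the 8, 10 passed in 4 and 22 in 3. The contrasts share libraries, since each line enters 2 of them at a harvest. PtXaAlbH.06G140400.v5.1 and PtXaAlbH.09G094900.v5.1 each passed in 2 of the 8, and they were among 1069 of 27216 genes to do so in one direction. Both passes of PtXaAlbH.09G094900.v5.1 were SD8 contrasts with TEML2_2ox, which called 1148 and 4775 genes. Differences of 1 sign in all 8, with or without a call, were seen at 1311 genes (4.82%), 696 with TEML1ox higher. The count of 2 fell to 1 without TEML1_1ox CH2 replicate 1 or 2, TEML2_1ox CH2 replicate 1 or 2, TEML2_2ox SD8 replicate 1 or 2, or TEML2_2ox CH2 replicate 2, and the gene left was then the one lower in TEML1ox. Each of these fits leaves 1 line and harvest with a single library, which is assumed to vary like the other groups.

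Across both harvests, the TEML1ox lines differed at 20 of 26556 genes (0.0753%), 12 higher in TEML1_1ox. The TEML2ox lines differed at 1067 genes (4.02%), 379 higher in TEML2_1ox and 688 lower. That count was 12 and 15 without TEML2_2ox SD8 replicates 1 and 2, 37 and 22 without TEML2_1ox SD8 replicates 1 and 2, and 171 without TEML2_1ox CH2 replicate 2. It was 490 without TEML1_1ox SD8 replicate 1, 673 without TEML1_2ox CH2 replicate 1, and 3128 and 1883 without TEML2_2ox CH2 replicates 1 and 2. The TEML1ox count ran from 8 without TEML1_1ox SD8 replicate 1 to 27, with 10 to 13 without TEML1_1ox CH2 replicate 2, TEML1_2ox CH2 replicate 1, TEML1_2ox SD8 replicate 1 or 2 or TEML2_1ox SD8 replicate 2. The biological coefficient of variation was 0.160 in the fit of construct and harvest and 0.105 with each line and harvest as its own group.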

How the data were processed

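The deposited values are raw read counts per gene, whole numbers, in 1 table per harvest, per the file headers; both were joined on gene identifier. HISAT2 is named in the submitters' processing notes. Libraries came from a stranded mRNA kit, per the labels' protocols. The sources used here do not give the counting program, genome build or strand setting, so near-identical or overlapping genes may share reads. The tests used edgeR 4.0.16 under R 4.3.3 (filterByExpr, TMM, quasi-likelihood F test, Benjamini-Hochberg over all genes tested, threshold 0.05). Fold changes are TEML1ox minus TEML2ox, and their SE is the absolute log2 fold change over the square root of F. CPM of single libraries and their means used TMM over all 20 libraries. Principal components and the mean log2 CPM of the naming rule used TMM over the 16 libraries compared, with a prior count of 2. The fits were tested on simulated data. The simulated counts held no difference between lines of a construct, so they cannot show how the calls fare where lines differ. Replicates are called biological in the labels. Their counts differed by more than sampling noise (chi-square per degree of freedom 6.75 to 29.6).

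The comparison and its rules were chosen with earlier results of these data known. Named genes are the 2 per direction with the largest log2 fold change among called, non-overlapping genes of mean log2 CPM at least 1. Gene lists fixed by name were void without names and give no result. The WT replicate 1 column of SD8 carries an extra digit in its name and matched no other sample. Alternatives were RLE scaling, DESeq2 1.42.0, other count filters (none, or 50 counts in 2 libraries), limma-voom (limma 3.58.1), line and replicate blocks, summed lines, all 20 libraries, tables fitted apart, and omissions of libraries and lines.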

Additional observations from a re-analysis of the deposited data

Results flagged for a closer look

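The total of TEML1_1ox CH2 replicate 2, 38978339 counts, stood apart from the other 3 TEML1ox libraries of CH2, at 38089559 to 38151654. It was the 1 of 20 groups of 4 libraries so marked, among the totals and the 4 genes named by rule, and chance marks about 1 in 20.

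At 16 genes the constructs did not overlap at either harvest but lay on opposite sides, 12 with TEML1ox higher at SD8 and lower at CH2 and 4 the other way. The difference between harvests was tested in the fit of 4 groups. It passed at 0 of the 16 in edgeR, with a smallest adjusted p of 0.273. All 16 had an unadjusted p under 0.05, as had 1542 of the 26556 genes tested, but the 16 were chosen on the same libraries for such a difference, so their share carries no support.

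The difference between the TEML2ox lines itself differed between harvests at 962 of 27216 genes (edgeR, adjusted p under 0.05), and that between the TEML1ox lines at 3. These tests were added after seeing the data.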

How the results depend on the processing

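Results are given as counts of called genes, and the cause of each change was not tested. RLE scaling and both other count filters kept every count within 1.5 times. DESeq2 gave 126 genes across harvests, 40 of them without overlap, 76 at SD8, 60 at CH2, 20 for the difference between harvests, 168 for the TEML1ox lines and 2561 for the TEML2ox lines. Limma-voom gave 31, with 19 without overlap, 2 at CH2, 81 for the TEML1ox lines and 3231 for the TEML2ox lines, and its split across harvests was 15 higher and 16 lower in TEML1ox, against 10 and 5. With a random line effect it gave 2, with 1 without overlap, and 1 for the difference between harvests. Each line as its own group gave 159, with 33 without overlap, 186 at SD8, 39 at CH2 and 65 for the difference between harvests. With lines summed edgeR gave 0 across harvests, 0 without overlap, 0 at SD8 and 0 at CH2. At an unadjusted p under 0.05 there were 502 of 27882 across, and 675 at SD8 and 705 at CH2 of 27631. Each is a smaller share than the 0.05 that chance alone would give. The fit of all 20 libraries gave 4 at SD8, 2 at CH2 and 1 in all 8 line pairs, and its split across harvests was 6 higher and 7 lower. Tables fitted apart gave 1 at SD8 and 2 at CH2.

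Without both TEML2_2ox libraries of SD8 there were 97 across harvests, 72 without overlap, 5 at SD8, 5 at CH2 and 1 for the difference between harvests. Non-overlap in this and the other omissions was asked only of the libraries kept. Without line TEML1_1ox there were 8 across, 1 of them among the 11, and 5 at SD8. Without TEML1_2ox there were 4 at SD8, 7 at CH2 and 1 for the difference between harvests, without TEML2_1ox 2720, 8 and 263, and without TEML2_2ox 8, 5 and 1, with 34 across and 34 without overlap. With single libraries left out the counts ran from 2 to 27 across, 2 to 21 without overlap, 2 to 5 at SD8, 1 to 2 at CH2, 0 to 4 for the difference between harvests, 1 to 2 in all 8 line pairs, 8 to 27 for the TEML1ox lines and 12 to 3128 for the TEML2ox lines. SD8 gave 5 without TEML1_1ox SD8 replicate 2 or TEML1_2ox SD8 replicate 1. CH2 gave 2 without TEML1_1ox SD8 replicate 1 or TEML2_1ox CH2 replicate 1. The difference between harvests gave 4 without TEML1_2ox SD8 replicate 1 and 1 without TEML2_1ox SD8 replicate 2. The 7 fold changes of named genes gave 220 values over the refits. All kept their direction, and 48 of these values lost the call.

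Same-numbered replicates did not pair: correlations of their deviations over 28 pairs of groups ran from -0.104 to 0.189, 4 of them over 0.1. With the replicate number as a block the counts were 13 across, 10 without overlap, 4 at SD8, 1 at CH2 and 655 for the TEML2ox lines, and PtXaAlbH.10G102000.v5.1 had an edgeR adjusted p of 0.0590. Depth limits low genes: PtXaAlbH.18G105900.v5.1 had 10 counts over the 4 TEML1ox libraries of SD8 and 3 over those of CH2.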

Other observations

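WT entered no main test, and its level beside the 11 genes without overlap is given as a description. The WT means rest on 2 libraries per harvest. The same counts were not taken over all genes tested, so those below cannot be read as a trait of the 11. On log2(mean CPM + 0.1), the WT mean was nearer to TEML1ox at 5 and nearer to TEML2ox at 6 of the 11 genes at SD8, and nearer to TEML1ox at 8 and to TEML2ox at 3 at CH2. It was nearer to TEML1ox at both harvests for 5 genes and nearer to TEML2ox at both for 3. It lay between the constructs at 6 of the 11 genes at each harvest.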
